A study of Mus musculus with 24 samples.

Results

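The genes described here encode the NF-κB transcription factor and the inhibitors that hold it back, as they were expressed in LSK-SLAM cells of young and old mice. The set was chosen by name from the known pathway: the 5 subunit genes *Rela*, *Rel*, *Relb*, *Nfkb1* and *Nfkb2*, and the 5 inhibitor genes *Nfkbia*, *Nfkbib*, *Nfkbie*, *Nfkbiz* and *Tnfaip3*. Of these 10 genes, 8 had a row among the 18762 genes of the table, and all 8 reached the mean of 10 normalized read counts that was asked of a gene to be tested, together with 12354 genes in all. The expression of *Nfkbie* and *Nfkbiz* was not analysed here.

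LSK-SLAM cells are the Lin-, Sca-1+, c-Kit+, CD48-, CD150+ cells of bone marrow, a fraction enriched for haematopoietic stem cells (HSCs). They came from 5 young and 7 old Wt C57BL/6 mice without treatment, aged 4 to 5 months and 20 to 22 months by the sample labels. The study's text gives other ages for the same comparison, so the groups are called young and old. RNA of 15000 cells per sample was depleted of ribosomal RNA, and 300 pg of it entered a low-input library kit. The study asked how HSCs change with age, and elsewhere connected NF-κB to the maintenance of HSCs.

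NF-κB is a dimer of Rel family proteins that waits in the cytoplasm, bound to an IκB inhibitor. Signals from TNF, IL-1 or Toll-like receptors activate the IκB kinase, which marks the inhibitor for destruction and sets the dimer free to enter the nucleus. There it switches on, among many targets, the genes of its own inhibitors, so that the response is limited by feedback. In HSCs the pathway is known for its part in stress responses, survival and the balance between self-renewal and differentiation. Transcript levels of these genes do not show whether the protein was in the nucleus.

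NF-κB binds DNA at κB words, and those in the promoters of these genes are shown because the pathway's feedback runs through such words. The κB motif was searched as a word of 10 bases on both strands: GGG, a purine, any base, A or T, a pair of pyrimidines and CC. Where the match is on the other strand, the capitals are its reverse complement. No other motif was searched. Promoters were taken from RefSeq on GRCm38.p6, from 250 bases before to 50 bases after each annotated start, and 7 of the 10 genes had an entry. A match was present in 5 of these 7 genes, *Nfkbia*, *Tnfaip3*, *Nfkbie*, *Rel* and *Nfkb2*, and absent in the windows of *Rela* and *Nfkbib*. Counted by promoter, 7 of the 10 promoters of these genes held a match. These include overlapping promoters of *Nfkb2* that share a match (within chr19:46305695-46305724), which is counted for each of them. Over all promoters of the same length, 1480 of 32851 (4.505%) held one, which is 1388 of 27025 genes (5.136%). In the lines below, the matched bases are in capitals, and the sequences run 5′ to 3′ on the strand of the gene:
Nfkbia, chr12:55492648-55492701, minus strand: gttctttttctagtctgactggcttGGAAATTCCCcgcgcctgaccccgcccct
Tnfaip3, chr10:19015411-19015447, minus strand: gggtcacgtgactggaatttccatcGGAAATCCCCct
Tnfaip3, chr10:19015516-19015545, minus strand: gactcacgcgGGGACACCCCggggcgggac
Rel, chr11:23771026-23771086, minus strand: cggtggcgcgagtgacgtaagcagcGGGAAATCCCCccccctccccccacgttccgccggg
Nfkb2, chr19:46304689-46304717, plus strand: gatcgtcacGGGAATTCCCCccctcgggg
Nfkb2, chr19:46304716-46304736, plus strand: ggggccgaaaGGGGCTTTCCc
The match began 29 bases before the annotated start in *Nfkbia*, 12 and 125 bases before it in *Tnfaip3*, 92 bases before it in *Rel*, and 39 and 11 bases before the first of the starts of *Nfkb2*. Runs of 11 capitals are a pair of overlapping matches. The match of *Nfkbie* and those at the later starts of *Nfkb2* are not shown. The windows of *Nfkb2* also lie in an exon of a longer GENCODE transcript, while the others overlap no annotated exon. A match is a description of the sequence and shows no binding in these cells.

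Each value is a normalized read count, for which the authors scaled the reads of a gene to the size of its library, corrected by a factor for each library, and expressed them per 1000000 reads. Reads on genes could be recovered from them and ranged from 0.861 to 5.12 M (M, 1000000 reads) per mouse, so that 3 reads corresponded to values between 0.583 and 3.69. Among the 8 genes, recovered reads per mouse ran from 13, for *Nfkbib* in old mouse 7, to 1274, for *Nfkb1* in young mouse 3. None of the genes was at 0 in any mouse. An A or a B closes each mouse's label, with a meaning not given in the sources used here, and is called the letter below. There were 2 young and 4 old mice with an A, and 3 of each age with a B. Every mouse of letter A had fewer reads (0.861 to 3.11 M) than every mouse of letter B (3.23 to 5.12 M), so that the letter and the depth cannot be told apart. The age comparison is therefore also given with the letter as a covariate and within each letter.

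The markers of the sorted cells were present in all mice: *Kit* ranged from 546 to 2049 normalized read counts, *Slamf1*, which encodes CD150, from 42.6 to 154, and *Cd48*, which the sort selects against, from 0.583 to 11.8. The sum of 9 LSK-SLAM markers was 2991 to 4882 in young mice and 1535 to 5380 in old mice. Old mice 5 and 7, which had the fewest reads, stood apart with the lowest sums, 1535 and 2212, and the differences that moved most without them are given both ways. Sums of markers of other cells were mostly higher in letter A, and those of LSK-SLAM cells mostly lower (1535 to 4043, against 3862 to 5380 in letter B). The sum of 5 B cell markers was 74.3 to 148 in letter A and 24.5 to 78.4 in letter B, and that of 5 endothelial and stromal markers was 162 to 252 against 51.7 to 149. The sum of 5 T cell markers was 52.9 to 148 against 16.5 to 65.5, and that of 5 erythroid markers 94.2 to 638 against 61.5 to 207. The sum of 8 myeloid markers was highest in old mouse 6, at 2227, and 180 to 969 elsewhere. In letter A it was 438 to 2227 in 4 old and 237 to 306 in 2 young mice. In letter B it was 180 to 210 in 3 old and 254 to 571 in 3 young mice. This difference of the age effect between the letters was not tested for the sum. Of the 6 myeloid markers tested for it singly, none was called (interaction in limma), against 2 of all 12354 genes. At an unadjusted p under 0.05, 5 of the 6 passed, against 424 genes in all. Reads on the predicted gene *Gm10800* made up 7.18% to 18.6% of a library in letter A, most in old mouse 7, and 1.60% to 8.44% in letter B. The T cell gene *Cd3e* was at 0 in 1 mouse, and no other marker was at 0 in any mouse. The sample is bulk, so that fewer cells of a type and less RNA per cell cannot be told apart.

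Per kb of transcript, *Nfkbia* was at the highest level of the 8 genes. It encodes IκBα, the inhibitor that is destroyed and made anew in each round of signalling, and its level was 87.3 ± 20.8 normalized read counts per kb (SD, n = 12). *Nfkb1*, the precursor of the p50 subunit, followed at 43.0 ± 11.5 per kb, and *Rela*, the p65 subunit that carries the activation domain, at 39.5 ± 11.6 per kb. The 5 others lay close together, from 13.2 ± 2.19 per kb for *Nfkb2* to 7.67 ± 2.45 per kb for *Rel*, with *Tnfaip3* at 11.4 ± 2.37, *Relb* at 10.5 ± 3.53 and *Nfkbib* at 9.80 ± 3.23 between them. The 2 largest steps in this order were from *Nfkbia* to *Nfkb1* (2.04-fold, higher in 12 of 12 mice) and from *Rela* to *Nfkb2* (2.91-fold, higher in 12 of 12 mice). Each gave an adjusted p of 0.00171 in a two-sided exact paired permutation test on log2 levels, adjusted over the 7 neighbouring pairs. The order and its pairs were taken from the same 12 mice, so that these p-values describe steadiness over mice and do not test the order independently. They also carry no uncertainty of the transcript length. The other 5 neighbours did not differ beyond their spread (adjusted p between 0.219 and 0.685, exact paired permutation test). Levels were divided by the length of the longest principal transcript in GENCODE vM21. Over the length of all annotated exons instead, *Nfkb1* was at 14.7 ± 3.92 per kb, below *Rela* at 34.9 ± 10.2, and *Relb*, at 5.98 ± 2.01, took the lowest place from *Rel*. The order of *Nfkb1* and *Rela*, that of the 5 lower genes and the pairs that are neighbours therefore depend on the length used.

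The 2 subunits of the classical dimer made up most of the subunit transcripts. In shares of the 5 subunits' summed level per kb, *Nfkb1* held 37.3% ± 5.15 and *Rela* 34.2% ± 5.16 (SD, n = 12). *Nfkb2*, whose p100 product is both a precursor and an inhibitor, held 11.9% ± 3.06. *Relb*, its partner in the non-canonical pathway, held 9.67% ± 3.96, and *Rel*, the c-Rel subunit known best from lymphocytes, 6.94% ± 2.49. These shares are formed within a mouse, so that the scaling between mice does not enter them. Over all annotated exons, the shares were 20.1% for *Nfkb1*, 47.5% for *Rela* and 10.9% for *Rel*, so that only shares of the same gene are compared between mice.

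**Figure D1:**
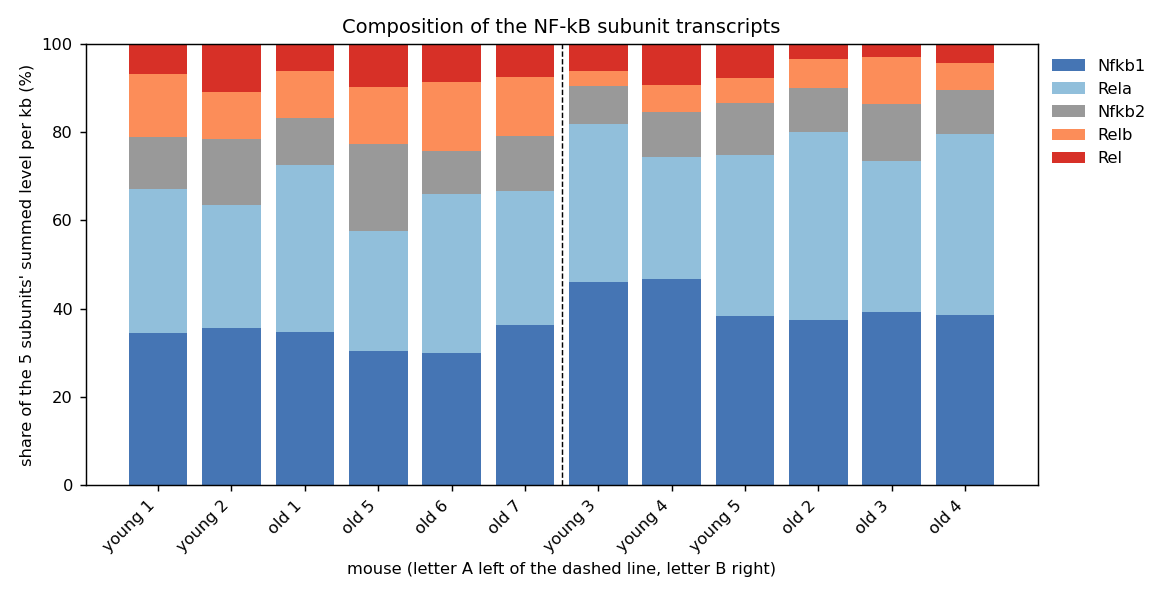
Share of each of the 5 NF-κB subunit genes in their summed level per kb (percent, stacked bars) in each of the 12 mice, with mice of letter A left of the dashed line and mice of letter B right of it. The *Relb* share was 10.6% to 15.7% in the 6 mice of letter A and 3.43% to 10.6% in the 6 mice of letter B, and the *Rel* share was 3.04% to 4.24% in the 3 old mice of letter B, below all other mice.

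None of the 8 genes differed between young and old mice at an adjusted p under 0.05, when 13 of the 12354 genes tested did (0.105%; limma on log2(value + 1), Benjamini-Hochberg adjustment over all genes tested). With the letter as a covariate, again none of the 8 was called, against 37 genes in all (0.299%). At an unadjusted p under 0.05, 1 of the 8 genes passed, against 488 genes in all (3.95%). The median log2 change of the 8 genes was -0.13, beside -0.017 over all genes tested. In none of the 8 genes did the young and old values stay apart, as they did in 57 genes (0.461%).

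*Rel* was the gene with the unadjusted difference. In young mice it was at 60.3, 87.5, 60.2, 86.5 and 65.2 normalized read counts in mice 1 to 5. In old mice its lowest value was 24.2, its median 49.2 and its highest 60.8. All but 2 young mice lay above every old mouse, and the highest old values, 60.8 and 60.0, lay beside the lowest young values, 60.2 and 60.3. The means were 72.0 ± 13.9 (SD, n = 5) and 46.8 ± 13.4 (SD, n = 7). The log2 change was -0.65 (SE 0.23, 95% interval -1.13 to -0.16), with an adjusted p of 0.889 by limma. In the two-sided exact permutation test over all 792 splits into 5 and 7, which is not adjusted for the 8 genes, p was 0.0164. Within letters, *Rel* stood lower in old mice by both letters' means. Among mice of letter A it was at 73.9 ± 19.2 in 2 young and 56.3 ± 5.33 in 4 old mice (log2 difference -0.37, exact permutation test p = 0.133). Among mice of letter B it was at 70.7 ± 13.97 in 3 young and 34.2 ± 8.75 in 3 old mice (log2 difference -1.04, two-sided exact permutation p = 0.1, which no split of 3 against 3 mice can go below), and every old mouse lay below every young mouse. With the letter as a covariate the log2 change was -0.72 (SE 0.21, adjusted p = 0.239 by limma), and p was 0.00667 when mice were exchanged within letters only (exact permutation test, 300 arrangements, unadjusted). The difference of the age effect between the letters, -0.67 (95% interval -1.52 to 0.18), did not pass (interaction in limma, adjusted p = 0.9998), as it did in 2 genes of 12354 (0.0162%). Under every alternative that was run, *Rel* stayed lower in old mice, with log2 changes of -1.04 to -0.37, and in none was its adjusted p under 0.05 (lowest 0.0550, in the mice of letter B alone).

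Markers of progenitors were lower in the old mice by their means. *Cd34*, a surface protein that progenitors carry and the most primitive HSCs of adult mice lack, was at 182 ± 53.0 in young and 84.6 ± 10.4 in old mice, with an adjusted p of 0.0544 by limma and of 0.00856 with the letter as a covariate. *Flt3*, the receptor of early lymphoid progenitors, was at 54.1 ± 13.6 in young and 30.8 ± 13.0 in old mice, with an adjusted p of 0.780 by limma and of 0.0523 with the letter as a covariate. The sum of the 3 progenitor markers was 167 to 293 in young mice and 98.0 to 139 in old mice, without overlap. Their part in the difference of *Rel* was not tested.

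For the other subunits, no difference between the ages passed the test. *Nfkb1* was at 170, 158, 250, 242 and 179 normalized read counts in the 5 young mice, and in old mice its lowest value was 104, its median 170 and its highest 232. The groups overlapped widely, with a log2 change of -0.34 (95% interval -0.79 to 0.12), and of -0.18 without old mice 5 and 7. *Rela* was at 105 ± 17.7 in young and 109 ± 39.8 in old mice, with a log2 change of -0.0062 (95% interval -0.50 to 0.49). Without old mice 5 and 7 the change of *Rela* was 0.24 (adjusted p = 0.977 by limma). *Nfkb2* was at 42.7 ± 5.71 in young and 40.8 ± 7.94 in old mice, with a log2 change of -0.079 (95% interval -0.50 to 0.34). *Relb* was at 38.0 and 25.5 in the 2 young mice of letter A and at 10.01, 17.1 and 14.4 in the 3 of letter B, while the old mice ranged from 17.3 to 32.6. Its log2 change was 0.35 over all mice (95% interval -0.31 to 1.01). In mice of letter A it was -0.18, and in those of letter B 0.60. The difference of its age effect between the letters was 0.78. For this difference, none of the 8 genes had an unadjusted p under 0.05 (interaction in limma). A dependence of its direction on the letter was therefore not shown.

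For the inhibitors, every interval of the age difference included 0. *Nfkbia* was at 130, 92.8, 156, 129 and 147 normalized read counts in the 5 young mice, and in old mice its lowest value was 87.3, its median 155 and its highest 186. The groups overlapped, with a log2 change of 0.091 (95% interval -0.37 to 0.55). Without old mice 5 and 7 it was 0.34 (adjusted p = 0.812 by limma). *Nfkbib*, which encodes IκBβ, was at 22.0 ± 7.83 in young and 18.9 ± 5.97 in old mice, with a log2 change of -0.19 (95% interval -0.86 to 0.48). *Tnfaip3*, which encodes the ubiquitin-editing enzyme A20 that shuts off signalling from the receptors, was at 54.2 ± 5.80 in young and 47.9 ± 12.6 in old mice, with a log2 change of -0.22 (95% interval -0.68 to 0.24). Its lowest value, 25.8, was in old mouse 3, which was also the lowest for *Rel*. For these 7 genes other than *Rel*, the adjusted p was 0.9997 by limma, and the exact permutation p was 0.160 or higher.

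**Figure D2:**
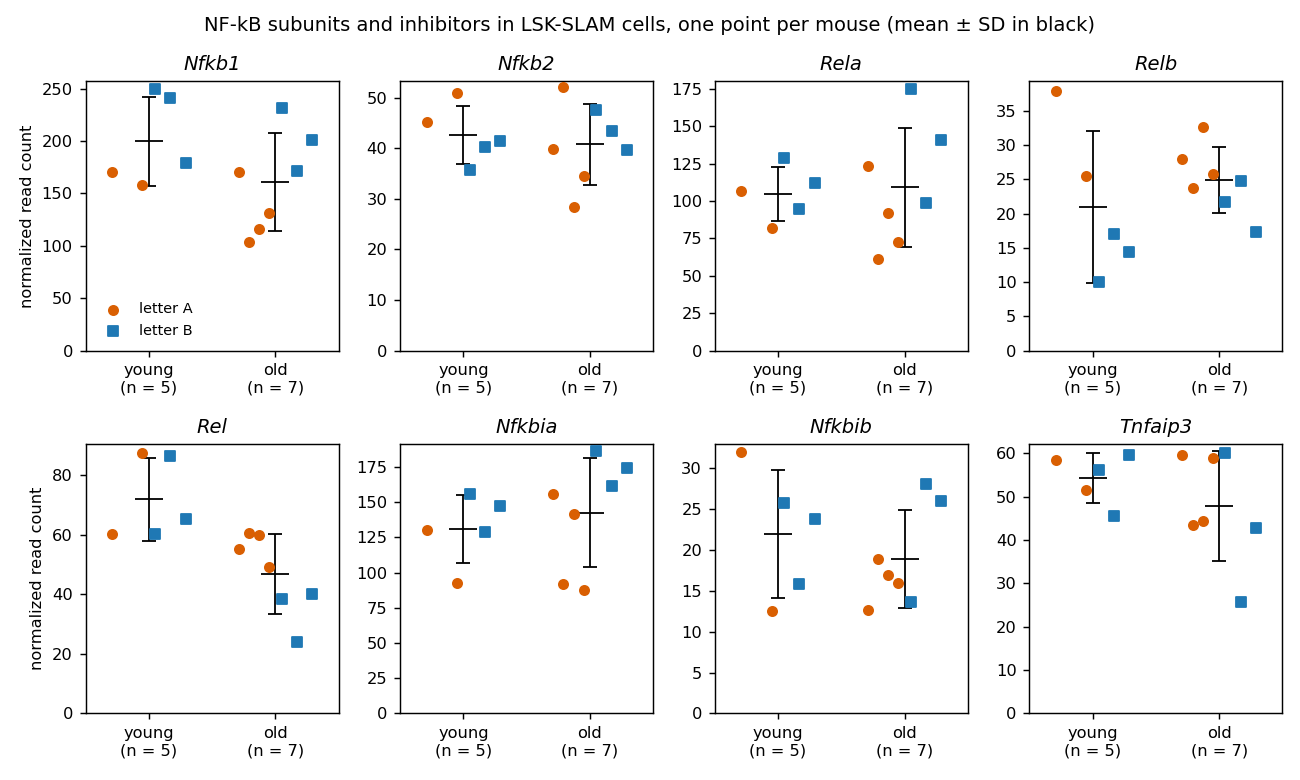
Normalized read counts of the 8 genes in 5 young and 7 old mice, one point per mouse, with circles for letter A and squares for letter B and with mean ± SD in black. The young and old points of *Rel* meet near 60, while those of the other genes overlap widely, and the letters separate *Nfkb1* completely.

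Among mice of letter B, the young and old values did not overlap in 3 of the 8 genes, as was the case in 1593 of the 12354 genes (12.9%). *Rel* was lower in the old mice, while *Relb* (13.8 ± 3.57 in young and 21.3 ± 3.77 in old mice) and *Nfkbia* (144 ± 13.6 and 174 ± 12.6) were higher (SD, n = 3 each). With 3 against 3 mice, the exact permutation p of each was 0.1, the smallest possible. Single markers moved in the same mice: *Slamf1* was higher in old mice (log2 change 0.88, adjusted p = 0.0235 by limma) and *Cd34* lower (-1.10, adjusted p = 0.000808). In letter B 100 of the 12354 genes were called (0.809%), none of the 8 among them. *Hlf*, like *Slamf1* one of the 9 LSK-SLAM markers, had a log2 change of -0.093 (adjusted p = 0.961 by limma). The sum of the 9 overlapped, at 3862 to 4882 in young and 4656 to 5380 in old mice of this letter. The myeloid sum was lower in old mice of this letter, and the part of these markers in the 3 differences was not tested. Among mice of letter A, no gene of the 8 was without overlap, against 1277 genes in all (10.3%).

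More genes differed between the letters than between the ages. Of the 8 genes, 2 differed between the letters at an adjusted p under 0.05, both higher in letter B, when 4462 of the 12354 genes did (36.1%), of which 1301 were higher in letter B (10.5% of the genes tested). *Nfkb1* was at 142 ± 28.7 in letter A and 212 ± 33.3 in letter B (SD, n = 6 each), with a log2 difference of 0.55 (SE 0.17, adjusted p = 0.0166 by limma with age as a covariate). Its values did not overlap, from 104 to 170 in letter A and from 172 to 250 in letter B, as was the case in 1297 genes (10.5%). *Nfkbia* was at 116 ± 29.6 in letter A and 159 ± 20.2 in letter B, with a log2 difference of 0.50 (SE 0.18, adjusted p = 0.0320 by limma). Both calls could be lost with a single mouse, while the differences kept their direction: that of *Nfkb1* was 0.48 without old mouse 2 (adjusted p = 0.0591), and that of *Nfkbia* was 0.42 to 0.52 without young mouse 2 or 3 or old mouse 2, 3, 4 or 7 (adjusted p between 0.0501 and 0.0969). Without old mice 5 and 7, that of *Nfkbia* was 0.30 (adjusted p = 0.140) and that of *Nfkb1* 0.47 (adjusted p = 0.0356). When letters were exchanged within the ages, p was 0.00571 for *Nfkb1* and 0.0114 for *Nfkbia* (two-sided exact permutation test, 350 arrangements, unadjusted).

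Of the others, *Rela* lay near the threshold, at 89.7 ± 22.7 in letter A and 125 ± 30.1 in letter B (log2 difference 0.49, adjusted p = 0.0524 by limma, and 0.29 with an adjusted p of 0.228 without old mice 5 and 7). *Relb* pointed the other way, at 28.9 ± 5.38 in letter A and 17.6 ± 5.24 in letter B (log2 difference -0.68, adjusted p = 0.0548 by limma). *Rel* was at 62.2 ± 13.2 in letter A and 52.4 ± 22.5 in letter B (log2 difference -0.45, adjusted p = 0.0873 by limma). When letters were exchanged within the ages, p was 0.0457 for *Rela*, 0.00571 for *Relb* and 0.0571 for *Rel* (two-sided exact permutation test, unadjusted). Each of these would have been called without single mice: *Rela* without young mouse 1 or 4 or old mouse 1 or 3 (adjusted p between 0.0235 and 0.0477 by limma), *Relb* without old mouse 3 (0.0443) and *Rel* without young mouse 1 (0.0300). *Nfkb2*, *Nfkbib* and *Tnfaip3* had log2 differences of -0.0027, 0.28 and -0.21, with adjusted p of 0.465 or higher by limma.

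These differences depend on the scaling between libraries. The median log2 difference over all genes between the letters was -0.089 on the authors' scaling and 0.21 after rescaling by median ratios, and the share of calls that were higher in letter B went from 29.2% to 57.0%. After rescaling, 3 of the 8 genes were called, against 5896 genes in all (47.7%), and all 3 were higher in letter B, as were 3360 genes (27.2%). They were *Nfkb1* (0.85), *Nfkbia* (0.80) and *Rela* (0.79), with adjusted p between 0.00411 and 0.00858 by limma. *Relb* (-0.40) and *Rel* (-0.16) stayed lower in letter B without passing, while *Nfkb2* (0.29) and *Tnfaip3* (0.089) changed sign. Depth, the share of *Gm10800*, the summed markers of other cells and those of LSK-SLAM cells all moved with the letter, and their part in these differences was not tested.

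**Figure D3:**
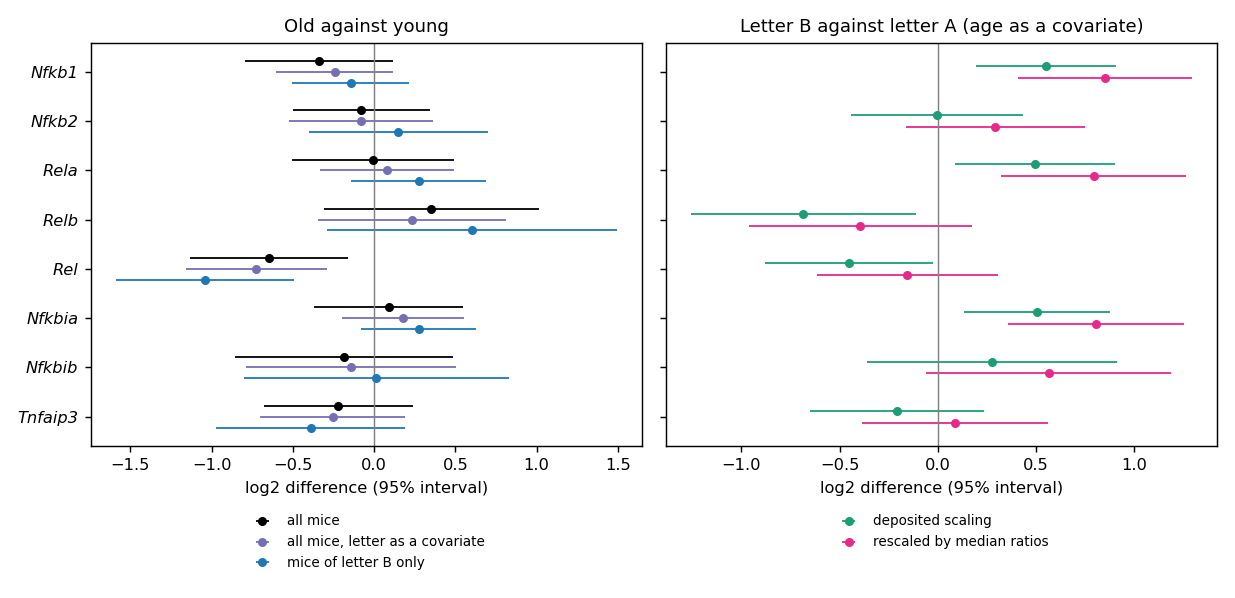
Log2 differences of the 8 genes with 95% intervals from limma, old against young on the left (all mice, all mice with the letter as a covariate, mice of letter B only) and letter B against letter A on the right (authors' scaling, and rescaled by median ratios). Only the intervals of *Rel* lie below 0 in all 3 fits of age, and *Nfkb1*, *Rela* and *Nfkbia* lie above 0 on both scalings of the letter.

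Reads from overlapping genes could enter a pair of the 8. Of the 50-base words of *Nfkb2* transcripts, 14.9% also occur in *Psd* or a long non-coding RNA on the opposite strand, and of those of *Nfkbib*, 12.6% occur in *Ccer2*. The strand used in counting is not given in the sources used here, so that values of *Nfkb2* and *Nfkbib* are uncertain to that extent. For the other 6 genes the share was at most 0.674%.

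Outside these genes, a list of 100 further genes of the pathway held 88 with a row and 73 that were tested. None of them differed between the ages at an adjusted p under 0.05, without or with the letter as a covariate (limma), and their median log2 change was 0.017 beside -0.017 over all genes. At an unadjusted p under 0.05, 4 of the 73 passed, against 488 of all 12354 genes (3.95%). Receptors had the gene nearest to the threshold: *Il1r1*, the receptor of IL-1, was at 39.8 ± 3.91 in young and 68.8 ± 16.1 in old mice, with a log2 change of 0.74 (SE 0.20, adjusted p = 0.320 by limma, unadjusted exact permutation p = 0.00505). *Tlr7*, which senses single-stranded RNA, had the largest change among the 15 receptors tested, 1.004, with an SE of 0.90. Its change was 1.94 in mice of letter A and -0.43 in those of letter B. The difference of its age effect between the letters, -2.37, did not pass (interaction in limma, adjusted p = 0.9998).

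Of the 15 further IκB family and feedback genes, *Nlrx1* (0.86, SE 0.40) and *Bcl3* (0.82, SE 0.36) had the largest log2 changes. *Bcl3*, a nuclear IκB protein that binds homodimers of the NF-κB precursors' products, was at 23.0 ± 11.6 in young and 40.2 ± 15.8 in old mice, and its adjusted p was 0.9997 by limma. Among mice of letter B its log2 change was 1.23 (adjusted p = 0.0455 by limma), which made it the 1 gene of the 73 that was called there. Of all 12354 genes, 100 were called in letter B (0.809%). Among mice of letter A the log2 change of *Bcl3* was 0.55 (adjusted p = 0.9997 by limma). The difference of its age effect between the letters, 0.69 (SE 0.62), did not pass (interaction in limma, adjusted p = 0.9998). The 27 kinases and adaptors, which carry the signal from the receptors to the inhibitors, had log2 changes from -0.27 to 0.34 and a median of 0.0084. *Tirap* (0.34, SE 0.31) was at their upper end. Of the 8 ligands, 5 fell under the mean of 10 and 3 were tested, of which *Tnfsf13b* (0.89, SE 0.60) and *Il1b* (0.51, SE 0.86) varied widely between mice. The third, *Ltb*, was at an unadjusted p of 0.0394 (-0.48, SE 0.22, adjusted p = 0.9997 by limma).

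Among the targets of NF-κB, no gene passed the test between the ages. Of 24 target genes, 13 were tested, with a median log2 change of -0.12. *Cxcl10*, a chemokine, had the largest change, -0.53 (SE 0.62), and *Ccnd1*, which encodes cyclin D1, was at 94.7 ± 25.2 in young and 128 ± 26.1 in old mice (0.44, SE 0.21, adjusted p = 0.9997 by limma). The immediate early genes, which respond to handling of cells, had a median of 0.097 over 14 genes, and their sum was 1442 to 3754 in young mice and 1203 to 4256 in old mice.

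Between the letters, 21 of the 73 pathway genes were called (28.8%), 8 higher and 13 lower in letter B, beside the 36.1% of all genes. After rescaling by median ratios 38 were called (52.1%, beside 47.7%), 26 higher and 12 lower. Of all 12354 genes, 1301 were called higher and 3161 lower, and after rescaling 3360 higher and 2536 lower. Of the 15 receptors tested, 7 were called, all lower in letter B, and after rescaling 7 were lower and 2 higher. Of the 27 kinases and adaptors, 6 were higher and 1 was lower, and after rescaling 14 were higher and 1 lower. The 15 further IκB family and feedback genes had 1 higher and 1 lower, and after rescaling 6 and 1. For the 13 targets it was 1 and 2, and after rescaling 4 and 1. Of the 3 ligands, 2 were lower on both scalings.

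**Figure D4:**
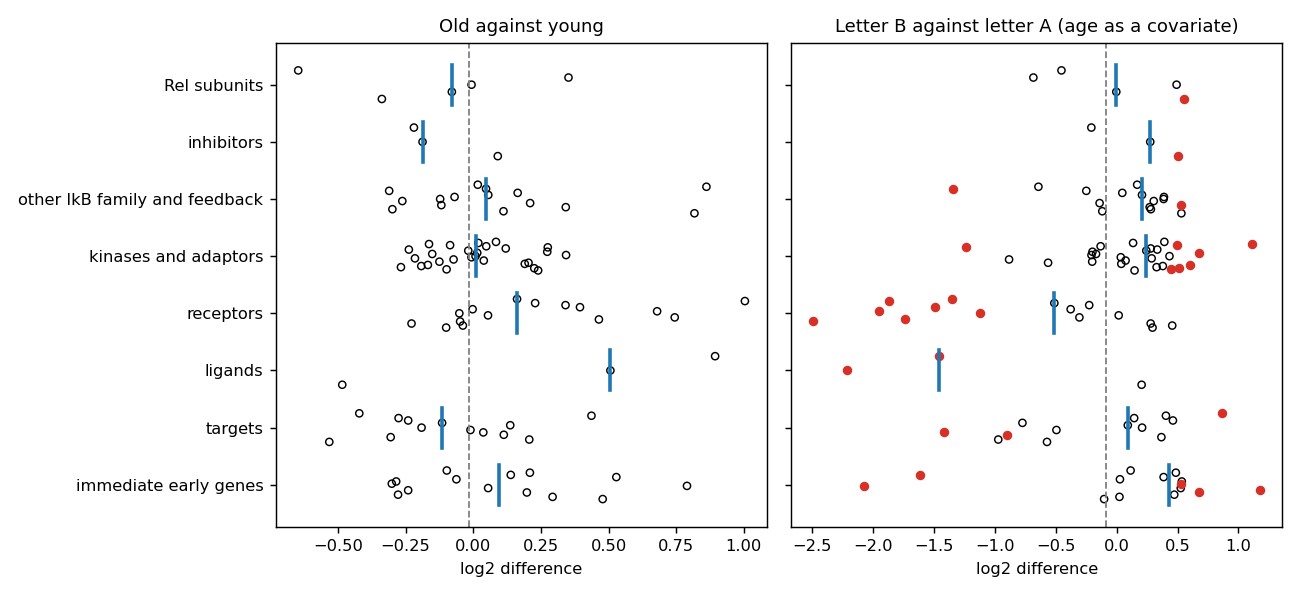
Log2 differences of the tested genes of each list, old against young on the left and letter B against letter A on the right, one circle per gene, filled in red where the adjusted p is under 0.05. The blue bar marks the median of the list and the dashed line the median of all genes tested. No circle is filled on the left, and the list medians there lie between -0.19 and 0.51.

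Spread between mice of the same group was compared as a description. After the mean of each age and letter was subtracted, the genes that followed *Nfkbia* most closely over the 12 mice were *Stat5a* (Pearson's r = 0.977), *Gm12185* (0.963) and *Mast4* (0.960), of 4799 genes with a mean of at least 50. Those closest to *Rela* were *Ube3c* (0.954), *Zfp809* (0.948) and *Nop56* (0.941), and those closest to *Nfkb1* were *Fam214a* (0.920), *Map2k2* (0.916) and *M6pr* (0.911). *Tnfaip3* was followed by *Rsrc1* (0.968), *Kdm4a* (0.855) and *Gtpbp2* (0.831), and *Relb* by *Sqle* (0.948), *Pdia6* (0.882) and *Tlk1* (0.879). For *Nfkb2* they were *Smyd5* (0.908), *Rrp12* (0.878) and *Vezt* (0.875), for *Nfkbib* *Trip6* (0.899), *Pmpca* (0.858) and *Washc2* (0.851), and for *Rel* *Dusp16* (0.893), *Fbxl12* (0.866) and *Zfp467* (0.849). The points share libraries and depth, each list is the top of 4799 candidates, and no 2 of the 8 genes shared a follower.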

How the data were processed

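RNA-seq of LSK-SLAM cells from 12 mice (5 young, 7 old) was analysed from 1 deposited table. There are 24 labelled samples, a pair for every mouse, but a single column per mouse, which was counted once. Values are a signal that the authors deposited as normalized read counts, which scale the reads of a gene to the size of its library, with a further factor for each library, per 1000000 reads. The submitters' processing notes name FastQC 0.11.8, STAR 2.5.4b, edgeR 3.24.3 and the build mm10. The counting tool, its use of strand and the annotation are not given in the sources used here. A deposited table of the authors' own comparison (log2 fold changes, log2 CPM, likelihood ratios, p-values, FDR) was not used.

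In every mouse, 100% of the values came out as whole reads, within 0.1 reads, when divided by the worth of 1 read, so reads could be recovered, 861047 to 5118507 per mouse. Intervals cover the spread between mice, and the deepest libraries have the least counting error. The ages were compared with limma 3.58.1 in R 4.3.3 (lmFit, eBayes with trend) on log2(value + 1), for genes with a mean of at least 10, with Benjamini-Hochberg adjustment over 12354 genes, and a gene was called at an adjusted p under 0.05. Fold changes on this scale understate those of low genes. The letter was tested in the same way with age as a covariate. Single genes were also tested with two-sided exact permutation tests of log2 values. This design was written for normalized values and was kept after reads had been recovered. edgeR 4.0.16 and DESeq2 1.42.0 on recovered reads were alternatives, besides other pseudocounts, filters, scalings, thinned reads, subsets of mice and a replicate block. The fits were first run on simulated reads in which known changes had been placed. Figures and other steps used Python 3.11.15.

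Positions, transcript lengths and 50-base words came from GENCODE vM21, and promoters from RefSeq. The genes and lists were chosen with earlier results of these data known. Named were all genes of the set with a row, of each other list the genes called between the ages and otherwise the 2 with the largest change, and for each gene of the set the 3 genes most like it. One gene that this rule names is not reported here. Genes named outside this rule (*Kit*, *Cd48*, *Flt3*, *Cd3e*, *Gm10800*, *Ltb*, *Psd*, *Ccer2*) were added after their values were seen. No pair of mice of one age differed by as little as sampling noise (chi-square per gene of 6.50 to 85.9 over 31 pairs). The labels number the mice separately, and p-values measure the spread between these samples.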

Additional observations from a re-analysis of the deposited data

How the results depend on the processing

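The number of genes called between the ages, 13 of 12354, was 0 without a filter on low values (753 at an unadjusted p under 0.05; DESeq2 called 46 with the filter), 2 without the trend, 5 after rescaling by median ratios, 37 with the letter as a covariate (43 with edgeR), 1 in letter A alone, 100 in letter B alone and 49 without old mice 5 and 7. It was 3 to 32 when single mice were left out. None of the 8 genes was called between the ages under any of these. The number called between the letters, 4462, was 2288 without old mice 5 and 7, 2761 in old mice alone and 447 in young mice alone, and 2943 to 5003 when single mice were left out. The share higher in letter B, 29.2%, was 42.7% with TMM and 43.0% with DESeq2.

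Replicate numbers 1 to 5 occur in both ages, on different animals. Deviations of same-numbered young and old mice correlated with r between -0.559 and 0.615 (mean 0.136) over 5 pairs, with 2 of 5 closest to their own number. Young and old mice of the same letter had a mean r of 0.348, and those of different letters -0.329. Same-numbered pairs mix both kinds, so that 5 pairs cannot decide whether the numbers share a batch. With the replicate block over replicates 1 to 5, 19 genes were called, against 8 without it in the same mice, and none was among the 8 genes described.

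Some log2 changes turned direction, most of them near 0. For *Rela* between the ages, the alternatives gave 0.071 and 0.075 (edgeR, authors' scaling and TMM), 0.068 (DESeq2), 0.064 (thinned reads), 0.24 (without old mice 5 and 7), 0.078 (letter as a covariate), 0.28 (letter B alone), 0.13 (replicates 1 to 5, with the replicate block or without) and 0.12 (edgeR with the letter), and -0.13 to 0.12 without single mice. *Nfkb2* gave 0.15 in letter B alone, 0.061 in replicates 1 to 5, and -0.14 to 0.0019 without single mice. *Relb* gave -0.18 in letter A alone, *Nfkbib* 0.015 in letter B alone, and *Nfkbia* -0.027 to 0.20 without single mice. Between the letters, *Nfkb2* gave 0.29 after rescaling, 0.092 with TMM, 0.098 with DESeq2, 0.014 in thinned reads, 0.036 without old mice 5 and 7, 0.20 in old mice alone and -0.093 to 0.076 without single mice, and *Tnfaip3* gave 0.089 after rescaling. The cause was not tested.

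The call of *Nfkbia* between the letters was lost without the trend (adjusted p = 0.0699), and those of *Nfkb1* and *Nfkbia* within either age alone, where fewer mice were compared. *Rela* passed with pseudocount 5, a minimum mean of 1, rescaling, TMM, DESeq2 and thinned reads (adjusted p between 0.00858 and 0.0493), and *Relb* without a filter or trend (adjusted p of 0.0405 and 0.0329, limma). Fits without old mice 5 and 7, of edgeR with the letter, and of replicates 1 to 5 without the block were chosen after seeing the data. Depth limits *Nfkbib* and *Relb* most, with 13 and 21 reads in old mouse 7, and the small number of young mice of letter A, 2, limits the comparison within that letter.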
